A study of Mus musculus with 14 samples.

Results

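Cells that carried both GFP and prominin were set against cells sorted for GFP, both from the subependymal zone (SEZ), the neurogenic layer beside the lateral ventricle of the adult brain. The arrays were chosen by their titles, 4 of SEZ_GFPprom and 2 of SEZ_GFP, out of 14 in the series. All 6 hold RNA of cells from hGFAP eGFP mice at 8 weeks of age, whose transgene puts green fluorescent protein under the human promoter of GFAP, and no treatment or further genotype is given. SEZ_GFPprom cells were selected by flow cytometry for GFP together with prominin, the surface protein encoded by Prom1, and SEZ_GFP cells for GFP. The labels call both groups neural stem. They do not say whether prominin-positive cells were kept out of the GFP sort, so whether the gates overlap is not known here. The GFAP promoter is also active in astrocytes that are not stem cells, which limits both groups as a model of stem cells. The arrays of a group are called biological replicates, with nothing on separate animals or pools, so what the p-values weigh is the spread between arrays. The comparison covers 18193 genes, each read by its brightest probe set. Levels are log2 intensities, differences are SEZ_GFPprom minus SEZ_GFP on the log2 scale with their standard error (SE), and a gene passed at a limma p adjusted over all genes under 0.05.

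The walls of the lateral ventricles are covered by ependymal cells, whose tufts of motile cilia move the cerebrospinal fluid. Stem cells of astrocyte type lie among and beneath them and touch the ventricle with a thin process that bears a primary cilium, which does not beat. Their progeny pass through dividing transit amplifying cells to neuroblasts, which migrate to the olfactory bulb. Prominin sits on membrane protrusions, cilia among them, of ependymal cells and of stem cells that reach the ventricle. The comparison asks what selection for prominin changes within GFP-positive cells of this niche. A motile cilium is built on an axoneme, a ring of doublet microtubules around a central pair, with dynein arms that bend it, radial spokes and linkers that time the arms, and intraflagellar transport that carries parts to its tip.

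Arrays correlated across genes at r = 0.943 to 0.966 within SEZ_GFPprom, at 0.979 within SEZ_GFP and at 0.921 to 0.939 between them. The log2 ratio of 3' to 5' signal of the control transcripts, a measure of RNA quality, was 4.94 ± 0.18 in SEZ_GFPprom (SD, n = 4) and 4.73 ± 0.14 in SEZ_GFP (n = 2). The 3' signal thus stood far above the 5' signal in both groups, a strong 3' bias. How far this bias lowers the reading of single probe sets was not tested. Between 25.4% and 25.7% of the probe sets of an array read 10 or less in intensity. Where a gene averages under 10 in either group, its fold is given with values under 10 set to 10. Xist, which is transcribed from the inactive X chromosome of females, stood at 10.89, 6.98, 11.05 and 11.39 on the SEZ_GFPprom arrays and at 5.25 and 6.38 on the SEZ_GFP arrays (adjusted p = 0.14, and 0.0308 without SEZ_GFPprom replicate 2). The arrays therefore differ in Xist within SEZ_GFPprom as well as between the groups. The Y-linked Eif2s3y had 6.87, 5.32, 6.81 and 5.64 in SEZ_GFPprom, against 7.69 and 8.34 in SEZ_GFP (-1.85, adjusted p = 0.0908). Kdm5d (-1.10) and Uty (-0.44), also Y-linked, overlapped between the groups, and none of the 4 genes passed. The part of the animals' sex in the results below was not tested.

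Prom1, which encodes the prominin of the sort, did not pass the test, and neither did Gfap or Cd24a. The GFP was driven by the human GFAP promoter and is not the product of Gfap. CD24 is not named in the selection of either group. Prom1 had 8.73, 9.38, 8.78 and 9.01 in SEZ_GFPprom, against 7.92 and 8.44 in SEZ_GFP. All 4 double-positive arrays lay above both GFP arrays, and the difference of 0.79 had a 95% interval of -0.23 to 1.82 (adjusted p = 0.491). Gfap had 9.72, 9.20, 7.15 and 8.52 in SEZ_GFPprom, against 7.59 and 7.77 in SEZ_GFP. SEZ_GFPprom replicate 3 lay below both GFP arrays and the other 3 above them (difference 0.97, interval -0.29 to 2.23, adjusted p = 0.498). Cd24a, whose surface protein marks ependymal cells and neuroblasts, differed by -0.48 (interval -1.35 to 0.38, adjusted p = 0.654).

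The double-positive cells differed from the GFP sort mainly by a set of higher genes. Of 18193 genes, 577 passed, which is 3.17%: 479 were higher (2.63%) and 98 lower (0.539%) in SEZ_GFPprom, so 83.0% of the calls were higher. At least 2-fold differences were found for 468 of the higher and 89 of the lower genes. The median difference was 2.46 over the higher and -1.44 over the lower genes, and 0.07 over all genes. In each of the 577 genes all SEZ_GFPprom arrays lay on the same side of both SEZ_GFP arrays. Such separation was found for 15.9% of all genes with SEZ_GFPprom above and for 9.89% with it below. These shares, with the 2.63% higher and 0.539% lower, are the background for the counts in the lists below. With each array shifted to the same median the split was 387 higher and 212 lower (64.6% higher), while the median over all genes moved to -0.15. The count rests on the SEZ_GFP arrays: 320 genes passed without replicate 1 of that group (275 higher and 45 lower) and 198 without replicate 2 (184 and 14). Without SEZ_GFPprom replicate 4 the lower genes numbered 60. RNA of sorted populations was measured, so fewer cells of a type and less of its RNA per cell cannot be told apart.

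**Figure D1:**
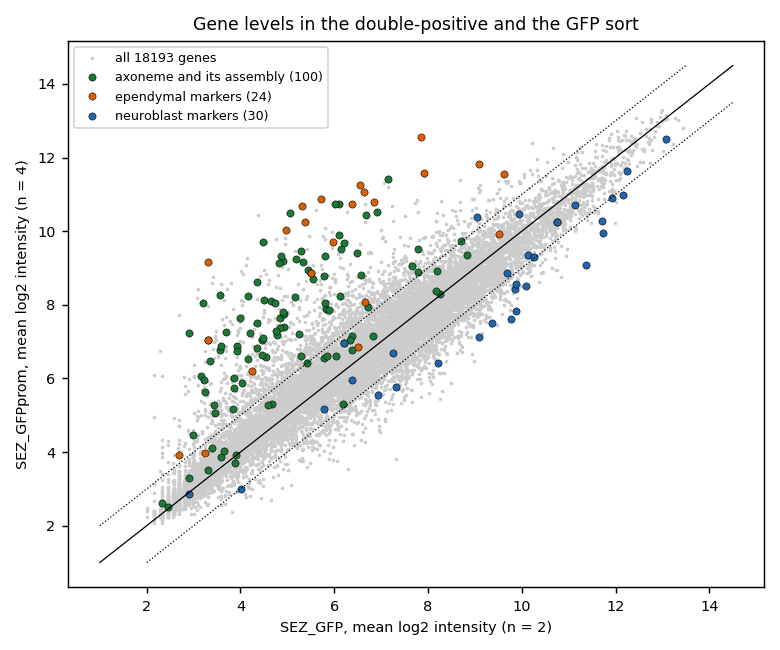
Mean log2 intensity of each gene in SEZ_GFPprom (vertical axis, n = 4) against SEZ_GFP (horizontal axis, n = 2), with the solid line at equal levels and dotted lines at 2-fold differences. Axoneme genes (green, 100 genes) and ependymal markers (orange, 24) lie mostly above the upper dotted line, and most neuroblast markers (blue, 30) lie below the line of equal levels.

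The largest differences belonged to genes of several kinds. Calb1, which encodes the calcium buffer calbindin, stood at 10.72, 10.21, 10.07 and 10.72 in SEZ_GFPprom, against 4.00 and 4.75 in SEZ_GFP. Its lowest double-positive array was more than 5 log2 units above the higher GFP array, and it led the comparison with 6.05 ± 0.53 (adjusted p = 6.68e-05). Capsl, an EF-hand protein related to calcyphosine, followed (54.8-fold with values under 10 set to 10), then Iqca (43.7-fold), Fam183b (41.6-fold) and Cfap161 (37.8-fold). The remaining members of the 12 highest were Slc26a3, an anion exchanger (37.0-fold), Ttc29, an axonemal protein (36.7-fold), Calml4, a calmodulin-like protein (35.9-fold), Bbox1, which catalyses the last step of carnitine synthesis (35.5-fold), Hoatz, needed for sperm tails and brain cilia in mouse (34.9-fold), Efcab12 (34.5-fold with values under 10 set to 10) and Acta2. Acta2, smooth muscle actin, was 33.6-fold higher by its brightest probe set, but a reading that leaves out probe sets matching several transcripts gave 0.11 (adjusted p = 0.878).

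Foxj1 is the forkhead factor that switches on the genes of motile cilia. It stood at 9.64, 9.93, 9.17 and 10.08 in SEZ_GFPprom, against 6.0 and 5.95 in SEZ_GFP. The groups were well apart, and the 13.3-fold difference (3.73 ± 0.31, adjusted p = 5.67e-05) passed. Deup1, which builds the deuterosomes on which multiciliated cells make their many centrioles, had 7.0, 6.67, 6.21 and 6.98 in SEZ_GFPprom, against 3.58 and 3.46 in SEZ_GFP (9.14-fold, adjusted p = 0.000609). Trp73, a p53 relative upstream of Foxj1 in multiciliated cells, was 2.56-fold higher (1.36 ± 0.25, adjusted p = 0.00992). That call was lost without SEZ_GFP replicate 1 (adjusted p = 0.0793) and replicate 2 (0.138). In all, 3 of 21 genes in the list of regulators of multiciliated cells rose, with a list median of 0.22, and 0 fell. That list also holds Tekt2, a tektin and not a regulator. Mcidas and Gmnc, which stand at the head of the programme, are not analysed here. Myb, another of its transcription factors, did not pass and differed by 1.32 (interval 0.16 to 2.48, adjusted p = 0.254) as did Ccno, a cyclin of centriole amplification, by 0.65 (adjusted p = 0.257). Rfx3, an RFX factor of ciliary genes, differed by 0.28 (interval -0.25 to 0.82) and Rfx2 by 0.02 (interval -0.84 to 0.87).

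RFX factors bind the X-box, an inverted repeat in the promoters of many ciliary genes, and Foxj1 binds forkhead motifs. Both were searched for in RefSeq promoter windows (GRCm38.p6, 250 bases before to 50 after the start of a gene). The X-box was taken as the half-sites GTTNCC and GGNAAC with 0 to 3 bases between them, which reads the same on both strands, and the forkhead motif as GTAAACA on either strand, with no rule on overlap between them. Genes can have several windows or none: 379 of the 479 higher genes had at least 1. Of 479 windows of genes higher in SEZ_GFPprom 17 held the paired half-sites (3.55%), and 0 of 90 windows of lower genes did. Of all RefSeq windows 264 of 32851 held them (0.804%), and of the windows of all genes tested 160 of 18110 (0.88%). Among 62 windows of axoneme genes that rose, 3 held them (4.84%), and among 33 windows of axoneme genes that did not pass 1 did (3.03%). The forkhead motif was in 5.01% of windows of higher genes and in 3.33% of those of lower genes. It was in 3.65% of all RefSeq windows and in 2.98% of the windows of all genes tested. Of the axoneme windows it was in 3.23% where the gene rose and in 9.09% where it did not pass. These counts are small. These matches describe letters in the windows and say nothing of binding. The 4 ciliary genes below rose, hold the pair and are given in the order of their differences. Each line gives the 250 bases before the start, 5' to 3' on the strand of the gene, with the paired half-sites and their spacer in capitals.
Iqca, chr1:90153437-90153686, minus strand: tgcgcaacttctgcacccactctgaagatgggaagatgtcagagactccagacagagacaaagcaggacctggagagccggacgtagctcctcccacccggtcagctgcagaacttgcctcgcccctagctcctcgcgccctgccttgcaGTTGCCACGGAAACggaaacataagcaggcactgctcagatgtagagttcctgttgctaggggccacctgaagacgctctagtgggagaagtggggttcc
Ccdc151, chr9:22002635-22002884, minus strand: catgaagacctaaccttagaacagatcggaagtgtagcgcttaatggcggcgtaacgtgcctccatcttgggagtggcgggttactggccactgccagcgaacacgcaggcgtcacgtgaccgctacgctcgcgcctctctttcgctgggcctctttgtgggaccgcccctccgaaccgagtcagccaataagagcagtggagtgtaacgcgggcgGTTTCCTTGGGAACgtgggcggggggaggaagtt
Ttc26, chr6:38381274-38381523, plus strand: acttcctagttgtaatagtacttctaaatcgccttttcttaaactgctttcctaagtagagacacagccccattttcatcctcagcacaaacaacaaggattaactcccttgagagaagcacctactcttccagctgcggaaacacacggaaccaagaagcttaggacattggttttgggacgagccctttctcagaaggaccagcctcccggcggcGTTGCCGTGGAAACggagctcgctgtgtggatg
Cfap298, chr16:90934850-90935099, minus strand: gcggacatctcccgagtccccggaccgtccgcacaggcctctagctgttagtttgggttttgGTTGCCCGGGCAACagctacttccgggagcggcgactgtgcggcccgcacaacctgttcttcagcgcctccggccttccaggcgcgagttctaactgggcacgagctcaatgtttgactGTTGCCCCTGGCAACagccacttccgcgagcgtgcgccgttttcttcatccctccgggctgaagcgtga
The pair begins at position -100 from the start of Iqca, at -34 in Ccdc151 and at -33 in Ttc26, and Cfap298 holds a pair at -188 and another at -69. Iqca, a homologue of a subunit of the linker between doublets, stood at 10.95, 10.29, 9.81 and 10.93 in SEZ_GFPprom, against 5.39 and 4.70 in SEZ_GFP. Ccdc151, a docking protein of the outer dynein arms, was 8.90-fold higher (adjusted p = 0.00634, and 0.108 without SEZ_GFP replicate 1). Ttc26, a subunit of intraflagellar transport, was 5.56-fold higher (adjusted p = 0.0153, and 0.188 without SEZ_GFP replicate 1 or 0.06 without replicate 2), and Cfap298, an assembly factor of dynein arms, 4.37-fold higher (adjusted p = 0.00616, and 0.0981 without SEZ_GFP replicate 2).

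Genes of the motile axoneme and its assembly were higher in SEZ_GFPprom as a group. Of the 100 genes in 8 lists, which also hold Actl6b, not an axonemal gene, 67 rose, 0 fell and 33 did not pass. The median difference was 2.5, against 0.07 over all genes, and 98 of the 100 differences were positive. The summed intensity of these genes was 43318, 32473, 25985 and 42416 on the SEZ_GFPprom arrays and 6445 and 5382 on the SEZ_GFP arrays. SEZ_GFPprom replicate 3 was the lowest of its group and still about 4 times the higher GFP array. Without SEZ_GFP replicate 1 the count was 47 and without replicate 2 it was 40.

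Dynein arms are the motors of the axoneme. Dnah9, a heavy chain of the outer arm, stood at 7.94, 7.88, 8.2 and 8.89 in SEZ_GFPprom, against 5.52 and 4.81 in SEZ_GFP (8.34-fold, adjusted p = 0.000231). The outer arm intermediate chain Dnaic1 was 5.76-fold higher (adjusted p = 0.00114). In the list of outer arm subunits 4 of 10 rose, with a median of 0.71, among which Dnaic2 rests on a probe set matching several transcripts and gave 0.03 (adjusted p = 0.978) without such sets. The heavy chain Dnah11 (2.27, adjusted p = 0.00971) lost its call without SEZ_GFP replicate 1 (0.0853) or 2 (0.122). Dnah5, another heavy chain of that arm, read 3.58 to 4.46 in SEZ_GFPprom and 3.58 to 3.70 in SEZ_GFP, near the floor of the array in both. Of the proteins that dock and attach the outer arm 4 of 6 rose: Armc4 19.5-fold (adjusted p = 1.78e-05), Ttc25 16.7-fold, Cfap53 5.49-fold and Ccdc151. In the list of inner arm subunits, which also holds Actl6b, not an arm protein, 8 of 10 rose with a median of 3.48. Among them the heavy chain Dnah6 had 10.51, 10.69, 10.06 and 10.79 in SEZ_GFPprom, against 6.71 and 7.10 in SEZ_GFP (12.2-fold, adjusted p = 0.000264). Dnali1, a light intermediate chain, was 14.1-fold higher and Wdr63, an intermediate chain, 15.0-fold higher with values under 10 set to 10. In the list of factors that assemble the arms in the cytoplasm 8 of 16 rose, with Zmynd10 9.91-fold and Dnaaf4 12.3-fold higher. That list also holds Dnaic1, an arm subunit already counted above, as 1 of its 8. The inner arm count was 4 without SEZ_GFP replicate 1 and 3 without replicate 2, and the assembly count was 5 without replicate 2.

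Radial spokes and the central pair relay signals to the arms. Rsph1, a protein of the spoke head, stood at 11.08, 10.77, 10.08 and 11 in SEZ_GFPprom, against 6.85 and 5.17 in SEZ_GFP (26.5-fold, 4.73 ± 0.50, adjusted p = 0.000269). Every SEZ_GFPprom array was more than 3 log2 units above both GFP arrays. Rsph4a, also of the head, was 16.7-fold higher (adjusted p = 0.000231) and the stalk protein Ropn1l 5.81-fold higher (adjusted p = 0.00115). Spokes rose in 11 of 14 with a median of 2.73, and in 6 without SEZ_GFP replicate 2. Of 15 central pair genes 11 rose, with a median of 2.59. Spag17, a protein of its projections, had 8.54, 7.13, 8.43 and 8.95 in SEZ_GFPprom, against 3.81 and 3.32 in SEZ_GFP (25.9-fold, adjusted p = 0.000434). Cfap54 was 11-fold, Spef2 7.49-fold and Cfap65 18.2-fold higher. Hydin, whose loss causes hydrocephalus in mouse, differed by 2.04 and did not pass (adjusted p = 0.0691, but 0.0375 without SEZ_GFPprom replicate 3). The central pair count was 7 without SEZ_GFP replicate 1, 5 without replicate 2 and 6 without SEZ_GFPprom replicate 4.

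The doublets are tied together by the nexin-dynein regulatory complex and stiffened by proteins inside their tubules. In the list of that complex and its ruler 8 of 11 genes rose, with Drc1 11.5-fold (adjusted p = 6.04e-05), Iqcg 11.9-fold (adjusted p = 4.89e-05) and Drc3 13.9-fold higher (adjusted p = 0.000713). That count was 5 without SEZ_GFP replicate 1 or SEZ_GFPprom replicate 4 and 4 without SEZ_GFP replicate 2. Inner proteins of the doublets rose in 14 of 19, with a median of 2.98. Cfap161 stood at 9.88, 9.25, 9.69 and 10.04 in SEZ_GFPprom, against 4.86 and 4.09 in SEZ_GFP (5.24 ± 0.32, adjusted p = 1.78e-05). Cfap52 was 24.7-fold, Spaca9 20.0-fold, Cfap45 19.2-fold and the tektin Tekt1 8.87-fold higher. Nme7, a nucleoside diphosphate kinase of the doublets, differed by 1.12 and did not pass (adjusted p = 0.257).

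**Figure D2:**
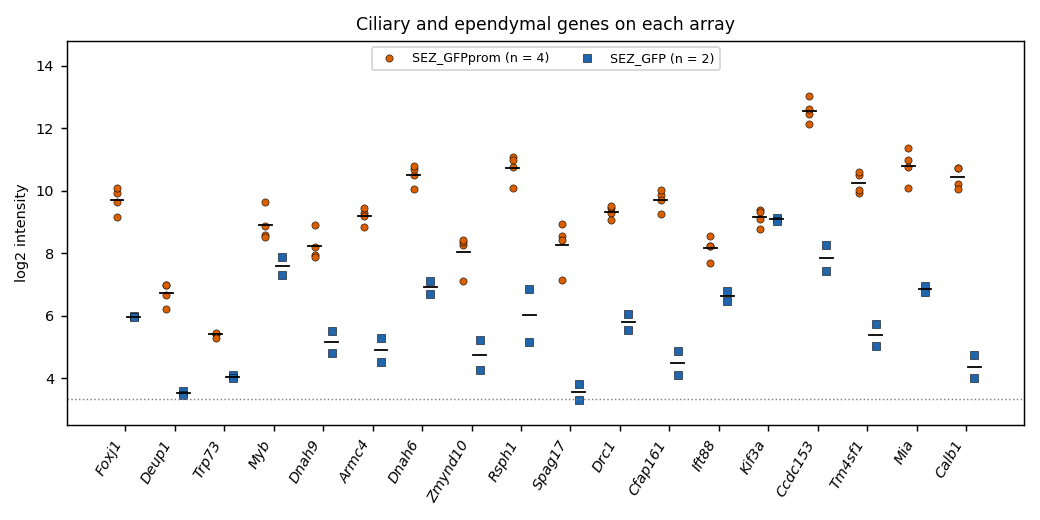
Log2 intensity of 18 ciliary and ependymal genes on each SEZ_GFPprom array (orange circles, n = 4) and SEZ_GFP array (blue squares, n = 2), with black bars at group means and a dotted line at an intensity of 10. All 18 genes but Kif3a show every orange circle above both blue squares. Of the 18, Myb and Kif3a did not pass the test.

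The other ciliary lists, most of whose genes serve motile and primary cilia alike, had smaller medians than the axoneme lists together. The outer arm subunits alone, at 0.71, had a smaller median than the lists of intraflagellar transport (0.88 and 1.01) and the BBSome (0.81). Intraflagellar transport, the BBSome, the transition zone and centrioles together gave 91 genes with a median of 0.61. Without overlap 39 lay above and 5 below, against 15.9% and 9.89% of all genes, and 40 had an unadjusted p under 0.05. Of the 91 genes 11 rose and 0 fell. That count was 6 without SEZ_GFP replicate 1 and 4 without replicate 2. Dynlrb2, a dynein light chain, led them with 11.49, 11.09, 10.80 and 11.60 in SEZ_GFPprom, against 7.33 and 5.78 in SEZ_GFP (25.8-fold, adjusted p = 0.000785). Transport complex A and its dynein rose in 2 of 12, Dynlrb2 and Wdr35 (3.28-fold, adjusted p = 0.0153, and 0.211 without SEZ_GFP replicate 1). In transport complex B and its kinesin 3 of 19 rose, Ttc26, Ift88 (2.93-fold, adjusted p = 0.0367) and Ift172 (2.51-fold, adjusted p = 0.0455). The last 2 missed the threshold without SEZ_GFP replicate 1 (0.258 and 0.404) or replicate 2 (0.19 and 0.0575). So did Ift88 without SEZ_GFPprom replicate 2, 3 or 4 (0.0617 to 0.0871) and Ift172 without replicate 1, 2 or 4 (0.086 to 0.105). The motor subunit Kif3a had 9.40, 9.32, 8.79 and 9.09 in SEZ_GFPprom, against 9.14 and 9.03 in SEZ_GFP, so the groups overlapped (difference 0.07, interval -0.49 to 0.63). The list of the BBSome, which ferries membrane proteins, passed in 0 of 11 genes, with 4 at an unadjusted p under 0.05 and a median of 0.81. The transition zone, the gate at the base of the cilium, rose in 3 of 21 with a median of 0.59, and in 1 without SEZ_GFP replicate 1 and 0 without replicate 2. They were Tmem107 (3.84-fold, adjusted p = 0.00776, and 0.17 without SEZ_GFP replicate 2), the tectonic Tctn2 and B9d1, all membrane or membrane-linked proteins of that gate. Tctn2 (4.22-fold, adjusted p = 0.0279) and B9d1 (3.49-fold, adjusted p = 0.0165) lost their calls without SEZ_GFP replicate 1 (0.0816 and 0.0976) or 2 (0.396 and 0.211), and Tctn2 also without SEZ_GFPprom replicate 1, 2 or 4 (0.0598 to 0.0719). Of 28 centriole genes 3 rose (Deup1, Cetn2 and Cetn4), with a median of -0.00. Cetn4, a centrin, was 8.30-fold higher (adjusted p = 0.000603), and Cetn2 2.59-fold (adjusted p = 0.0068, and 0.128 without SEZ_GFP replicate 2). Plk4, the kinase that starts centriole duplication in dividing cells, differed by -1.43 (adjusted p = 0.357). Signalling genes of the primary cilium passed in 0 of 17, with 1 at an unadjusted p under 0.05 and a median of 0.15. Tubulins and their modifiers rose in 3 of 28 with a median of 0.03, and in 1 without SEZ_GFP replicate 1 and 0 without replicate 2. Among them Tppp3, a tubulin polymerization factor, was 6.44-fold higher (adjusted p = 0.00511, and 0.124 without SEZ_GFP replicate 2). The tubulin list also holds Ccp110, a centriole protein. The summed intensity of the primary cilium genes was 7168 to 7868 in SEZ_GFPprom and 6314 to 6592 in SEZ_GFP. Planar cell polarity genes, which orient cilia and cells in a sheet, had 1 higher and 1 lower call in 22. Celsr1 differed by 1.29 (adjusted p = 0.0493) and lost its call without SEZ_GFP replicate 1 (0.104) or 2 (0.548) or SEZ_GFPprom replicate 1, 3 or 4 (0.087 to 0.111). Celsr3 was 4.56-fold lower (adjusted p = 0.00531, and 0.115 without SEZ_GFP replicate 2).

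**Figure D3:**
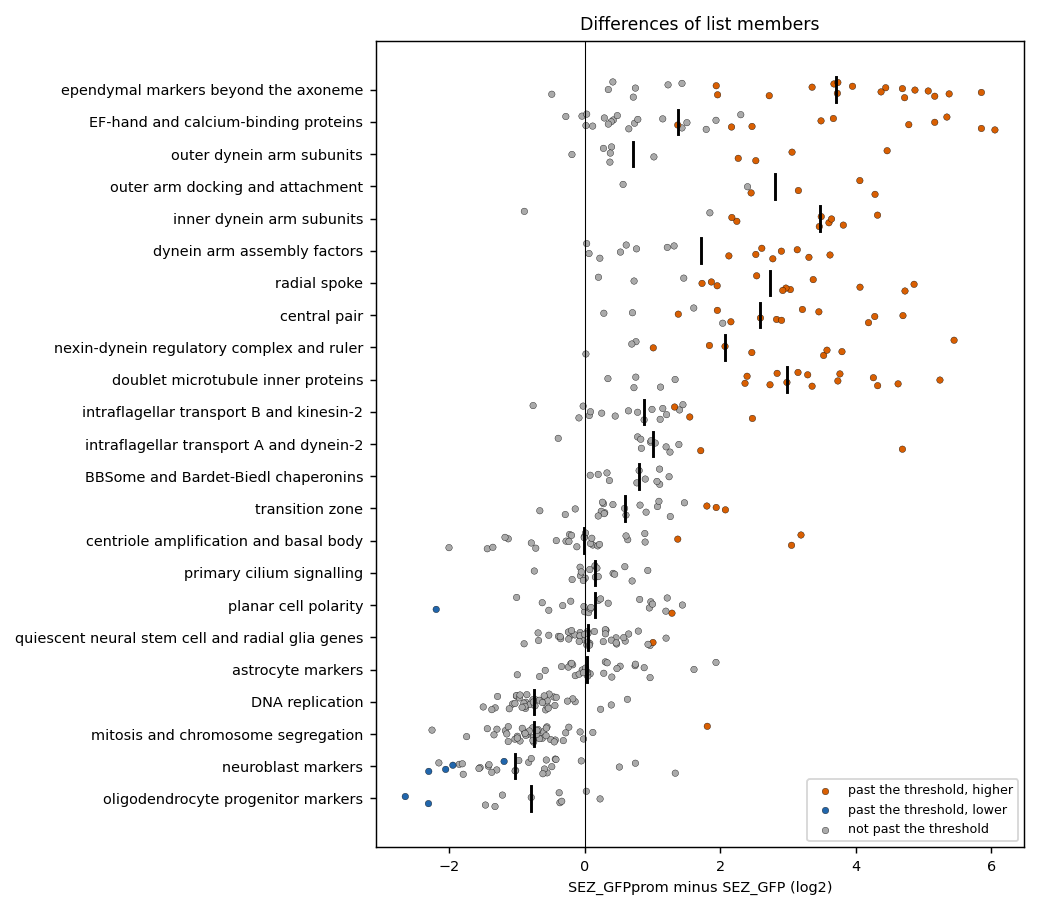
Difference of each list member, SEZ_GFPprom minus SEZ_GFP (log2), with 1 point per gene, coloured by whether it passed and in which direction, and black bars at list medians. Axonemal, ependymal and EF-hand lists hold most of the orange points, while lists of the primary cilium, stem cells and astrocytes centre near 0 and those of the cell cycle and neuroblasts lie below it.

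Markers of ependymal cells, a few of which also stand in the ciliary lists, rose in 17 of 24, with a median of 3.70, and 0 fell. Their summed intensity was 43418, 32342, 25455 and 41070 in SEZ_GFPprom, against 6454 and 4314 in SEZ_GFP. The labels name both sorts neural stem and do not mention ependymal cells for either. The list was chosen with earlier results of these data known, and it holds Capsl, Fam183b, Calml4 and Acta2 of the 12 highest. Ccdc153, a coiled-coil protein of ependyma, had 13.02, 12.47, 12.14 and 12.63 in SEZ_GFPprom, against 8.25 and 7.43 in SEZ_GFP (26.4-fold, adjusted p = 8.08e-05). Its lowest double-positive array lay almost 4 log2 units above the higher GFP array. Tm4sf1, a tetraspanin-like surface protein, was 29.3-fold higher (adjusted p = 4.06e-05), Tmem212 21.7-fold, Odf3b 20.7-fold and Mia 15.5-fold. Meig1, needed for sperm tails in mouse, was 12.6-fold higher with values under 10 set to 10. Rarres2, which encodes chemerin, differed by 3.68 with its brightest probe set and, like Acta2, lost its call (0.46, adjusted p = 0.497) when probe sets matching several transcripts were left out. The ependymal markers that did not pass included Ezr, which links membranes to actin (0.42, adjusted p = 0.471), and Cd24a.

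EF-hand proteins bind calcium in a loop between paired helices, and 10 of 29 in the list rose with a median of 1.37. Beside Calb1, Capsl, Calml4 and Efcab12, the list held Efcab1 with 8.97, 8.56, 9.03 and 8.82 in SEZ_GFPprom, against 4.32 and 3.81 in SEZ_GFP (27.5-fold, adjusted p = 0.000264). Pvalb, which encodes parvalbumin, a calcium buffer of interneurons and muscle, was 5.54-fold higher (adjusted p = 0.00146) with 8.2 to 8.54 in SEZ_GFPprom and 5.86 to 5.91 in SEZ_GFP. S100b, a calcium-binding protein of astrocytes and ependyma, differed by 1.94 and did not pass (adjusted p = 0.071). Genes of junctions and the epithelial surface rose in 4 of 37, and in 2 without either SEZ_GFP array. They were Tm4sf1, given above, Dsg2, Pkp2 and Ocln. Dsg2, a cadherin of desmosomes, had 9.48, 9.05, 8.27 and 9.57 in SEZ_GFPprom, against 4.00 and 4.25 in SEZ_GFP (31.3-fold, adjusted p = 4.89e-05). The groups were more than 4 log2 units apart. Pkp2, a plakophilin of desmosomes (1.95, adjusted p = 0.0282), turned to -0.05 when probe sets matching several transcripts were left out. It also missed without SEZ_GFP replicate 1 (0.293) or 2 (0.0655) or SEZ_GFPprom replicate 2 or 4 (0.0697 and 0.0724). Ocln, which encodes occludin of tight junctions (2.81, adjusted p = 0.0454), lost its call without SEZ_GFP replicate 1 (0.178) or 2 (0.405) or SEZ_GFPprom replicate 1, 2 or 4 (0.0902 to 0.102). Cdh2, the cadherin of neural stem cells and ependyma, differed by -0.51 (adjusted p = 0.684).

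Genes of quiescent stem cells and radial glia gave 1 call. Of 41 genes 1 rose and 0 fell, with a median of 0.05, and 10 lay above and 4 below without overlap. Over all genes 2.63% were higher, and 15.9% lay above and 9.89% below, so the counts of calls and of genes below are near the background. The median level over the list was 8.97 in SEZ_GFPprom and 9.07 in SEZ_GFP. Slc1a3, the glutamate transporter GLAST, had 9.81, 10.16, 9.95 and 10.61 in SEZ_GFPprom, against 10.29 and 10.38 in SEZ_GFP. These groups overlapped, and the difference of -0.20 had an interval of -1.02 to 0.61. Aldoc, a glycolytic enzyme of astrocytes and stem cells, had 12.40 to 12.46 in SEZ_GFPprom and 12.19 to 12.59 in SEZ_GFP (0.04, interval -0.81 to 0.89). The intervals of Sox2 (-0.89 to 0.12), a factor of neural stem cells, of the Notch target Hes5 (-1.18 to 0.47), of Fabp7 (-0.73 to 0.80), of Nr2e1 (-0.77 to 1.41) and of the gap junction gene Gja1 (-0.65 to 0.74) all held 0. Those of Hes5 and Nr2e1 reach past a 2-fold difference in 1 direction, so these arrays bound the genes only loosely. Thbs4, a thrombospondin of SEZ astrocytes, differed by 0.94 (interval 0.05 to 1.82, adjusted p = 0.302). The gene that passed was Sox9, a glial factor, at 1.01 ± 0.25 (adjusted p = 0.0491). It was lost without SEZ_GFP replicate 1 (0.114) or 2 (0.531) and without SEZ_GFPprom replicate 1, 2 or 4 (0.101 to 0.11). Astrocyte markers passed in 0 of 30 with a median of 0.03, and 3 had an unadjusted p under 0.05. Their summed intensity was 47824 to 53426 in SEZ_GFPprom and 43750 to 53919 in SEZ_GFP.

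Genes of dividing cells leaned lower in SEZ_GFPprom without passing. Among 85 genes of DNA replication and mitosis, 1 rose and 0 fell, with a median of -0.75. The SEZ_GFPprom arrays lay below both GFP arrays for 39 of the 85, against 9.89% of all genes. Mcm6, a subunit of the replicative helicase, had 9.13, 9.02, 9.05 and 8.26 in SEZ_GFPprom, against 9.8 and 9.66 in SEZ_GFP (difference -0.87, interval -1.45 to -0.29, adjusted p = 0.122). Mki67, the proliferation antigen, had 10.39, 10.86, 10.65 and 10.05 in SEZ_GFPprom, against 10.97 and 11.51 in SEZ_GFP (-0.75, interval -2.15 to 0.65, adjusted p = 0.673). Both genes had every double-positive array below the GFP arrays. The mitotic kinesin Kif11 differed by -1.43 (interval -2.38 to -0.49, adjusted p = 0.116) and the topoisomerase Top2a by -0.88 (interval -1.97 to 0.22). The gene that rose was Nuf2, a kinetochore protein, with 10.01, 9.81, 9.69 and 10.45 in SEZ_GFPprom, against 8.02 and 8.33 in SEZ_GFP (3.51-fold, adjusted p = 0.00163). Of 20 genes of activated stem cells and transit amplifying cells 0 passed, 2 had an unadjusted p under 0.05, and the median was -0.71. Egfr, the receptor of the epidermal growth factor, differed by -0.68 (interval -1.56 to 0.20) and Dlx2, a homeobox factor of transit amplifying cells and neuroblasts, by -1.12 (interval -2.15 to -0.10, adjusted p = 0.278).

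Neuroblast markers were lower where they passed. Over all genes 0.539% were lower and 9.89% lay below without overlap. Of 30 markers 4 fell and 0 rose, with a median of -1.02, and 21 lay below without overlap. Their summed intensity was 25274, 24913, 31109 and 23259 in SEZ_GFPprom, against 45483 and 49343 in SEZ_GFP. Igfbpl1, a secreted protein of newborn neurons, had 7.34, 7.37, 7.14 and 6.70 in SEZ_GFPprom, against 9.16 and 9.0 in SEZ_GFP (3.84-fold lower, -1.94 ± 0.26, adjusted p = 0.00118). The synaptic adhesion gene Nrxn3 differed by -2.30 (adjusted p = 0.00786, and 0.171 without SEZ_GFP replicate 2) and Tiam2, an activator of Rac, by -2.05 (adjusted p = 0.00856, and 0.104 or 0.0753 without SEZ_GFP replicate 1 or 2). Ncam1, the adhesion molecule that carries polysialic acid on migrating neuroblasts, differed by -1.19 (adjusted p = 0.0405) and missed without SEZ_GFP replicate 1 (0.137) or 2 (0.421) or SEZ_GFPprom replicate 1, 2 or 4 (0.0779 to 0.0968). Dcx, the microtubule protein that defines neuroblasts, lay between 9.50 and 10.35 in SEZ_GFPprom and stood at 11.71 and 11.76 in SEZ_GFP. The groups did not overlap, but the difference of -1.79 (interval -2.84 to -0.73) did not pass (adjusted p = 0.0762). Stmn2 (-2.15, adjusted p = 0.0812) and Tubb3 (-1.85, adjusted p = 0.0593), cytoskeletal genes of young neurons, likewise missed. The neuroblast count was 1 without SEZ_GFP replicate 2. In the list of neural adhesion and synapse organisers 4 of 34 were lower and 1 higher: Nrxn3, Ncam1, Celsr3 and Igsf9, a relative of cell adhesion molecules (-2.25, adjusted p = 0.0247), fell, and Cntnap2, a neurexin relative of axons (2.21, adjusted p = 0.0325), rose. Without SEZ_GFP replicate 1 the list had 2 lower calls and without replicate 2 it had 0. The call of Cntnap2 was lost without SEZ_GFP replicate 1 (0.169) or 2 (0.297) or SEZ_GFPprom replicate 1, 3 or 4 (0.0541 to 0.078), and that of Igsf9 without SEZ_GFP replicate 1 (0.0622) or 2 (0.388) or SEZ_GFPprom replicate 1 or 4 (0.055 and 0.0611).

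Transcription factors of interneuron production, with a median of -0.68, fell in 2 of 31, against 0.539% of all genes. These were Pbx3 (-1.78, adjusted p = 0.0144), a homeobox factor of olfactory interneurons, and Myt1 (-1.64, adjusted p = 0.00918), a zinc finger factor of neuronal differentiation. Both missed without SEZ_GFP replicate 1 (0.0856 and 0.0877) or replicate 2 (0.2 and 0.113). Sox11, a factor of young neurons, had 11.02, 10.66, 11.32 and 10.61 in SEZ_GFPprom, against 11.88 and 11.96 in SEZ_GFP (-1.02, interval -1.71 to -0.32, adjusted p = 0.133), and Dlx1 differed by -1.44 (interval -3.06 to 0.17). Against the same 0.539%, axon guidance genes had 1 lower call in 37. This was Efnb2, a membrane ligand of Eph receptors, at -1.25 (adjusted p = 0.0295). It missed without SEZ_GFP replicate 1 (0.21) or 2 (0.196) or SEZ_GFPprom replicate 1, 2 or 4 (0.0529 to 0.0779).

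The progenitor proteoglycan Cspg4 (NG2) had the largest fall among genes whose call did not turn on probe sets matching several transcripts. It had 5.49, 5.98, 5.17 and 6.0 in SEZ_GFPprom, against 8.45 and 8.16 in SEZ_GFP (6.25-fold lower, -2.64 ± 0.32, adjusted p = 0.000581). The groups were more than 2 log2 units apart. Edaradd, an adaptor of ectodysplasin signalling, led the lower genes at -3.53 but stood at 0.16 (adjusted p = 0.759) once such probe sets were left out. Oligodendrocyte progenitor markers fell in 2 of 11, Cspg4 and Matn4, a matrilin of the matrix (-2.30, adjusted p = 0.00726, and 0.17 without SEZ_GFP replicate 2). The progenitor receptor Pdgfra differed by -1.32 (adjusted p = 0.286) and the lineage factors Olig2 by -0.37 and Sox10 by 0.23, and none of the 3 passed. The summed intensity of the 11 markers was 3116 to 4962 in SEZ_GFPprom and 5840 to 6033 in SEZ_GFP.

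**Figure D4:**
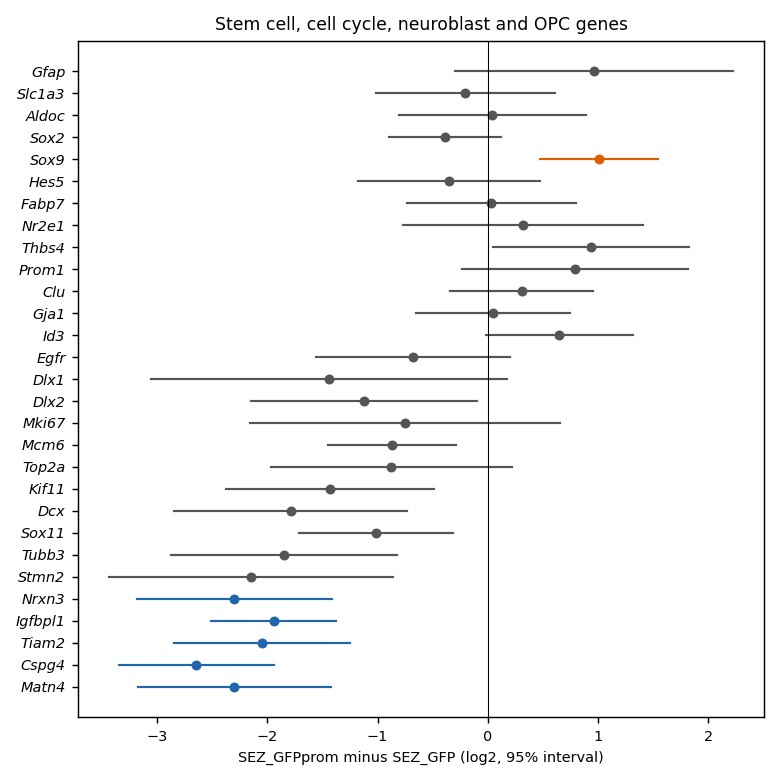
Difference of stem cell, cell cycle, neuroblast and oligodendrocyte progenitor (OPC) genes, SEZ_GFPprom minus SEZ_GFP (log2), as points with 95% intervals from the fit, orange or blue where the gene passed and grey where it did not. The genes shown are a selected part of their lists. Stem cell genes scatter around 0 with Sox9 alone past the threshold, and the points shown from Egfr downwards all lie below 0. In the full lists 5 of 85 cell cycle, 3 of 30 neuroblast and 2 of 11 OPC genes had positive differences, among them Nuf2 and Sox10, which are not shown.

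Markers of other cell types were read the same way. Mature oligodendrocyte markers rose in 2 of 11. Mbp, a myelin protein, had 12.35, 12.38, 12.02 and 12.34 in SEZ_GFPprom, against 10.86 and 10.49 in SEZ_GFP (3.03-fold, adjusted p = 0.000407). Mobp, also of myelin, was 10.9-fold higher (adjusted p = 0.00661, and 0.15 without SEZ_GFP replicate 2). All 11 differences were positive, and the summed intensity was 11390 to 19055 in SEZ_GFPprom and 5183 to 8001 in SEZ_GFP. Microglia markers passed in 0 of 16, and 5 had an unadjusted p under 0.05. All 16 of their differences were positive with a median of 0.74, and the sum was 2622 to 4749 in SEZ_GFPprom and 1198 to 1492 in SEZ_GFP. Ctss, a lysosomal protease of microglia, differed by 1.77 (adjusted p = 0.0652) and Csf1r, the receptor on which microglia depend, by 1.62 (adjusted p = 0.163). Mature neuron markers passed in 0 of 20, 7 had an unadjusted p under 0.05, the median was 1.07, and their sum was 4980 to 11703 in SEZ_GFPprom and 3508 to 3655 in SEZ_GFP. The part of these cell types in the genes that rose was not tested.

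Endothelial markers rose in 2 of 15, and in 0 without SEZ_GFP replicate 2. Their summed intensity was 1973 to 3226 in SEZ_GFPprom and 1536 to 1668 in SEZ_GFP, while that of mural and smooth muscle markers was 1600 to 2965 in SEZ_GFPprom and 1019 to 1096 in SEZ_GFP. In the mural list 3 of 16 rose, Acta2 among them, and Cspg4 fell. The endothelial genes Pecam1 and Cdh5 lay between 2.58 and 3.32 on all 6 arrays, at or under an intensity of 10. Slc2a1, the glucose transporter of the blood-brain barrier, was 4.20-fold higher (adjusted p = 0.0103, and 0.211 without SEZ_GFP replicate 2). Of the mural genes, Tagln was 4.46-fold and Myl9 6.13-fold higher (adjusted p = 0.00241 and 0.00045), both of which encode contractile proteins of smooth muscle. Myh11, the smooth muscle myosin, had 3.00 to 3.58 in SEZ_GFPprom and 2.81 in SEZ_GFP, and Pdgfrb, the receptor of pericytes, differed by -0.06 (adjusted p = 0.985). Choroid plexus markers rose in 2 of 12. Sostdc1, a secreted antagonist of BMP and Wnt, had 7.29, 7.07, 6.99 and 7.58 in SEZ_GFPprom, against 4.86 and 3.58 in SEZ_GFP (8.04-fold, adjusted p = 0.00161). The other, the chloride channel protein Clic6 (2.88, adjusted p = 0.00993), gave 0.39 (adjusted p = 0.758) once probe sets matching several transcripts were left out, and 0.202 as its adjusted p without SEZ_GFP replicate 2. Ttr, the plexus transport protein, varied from array to array with 10.47, 12.08, 6.87 and 12.81 in SEZ_GFPprom and 13.16 and 8.77 in SEZ_GFP. The summed intensity of the list was 484 to 7855 in SEZ_GFPprom and 571 to 9411 in SEZ_GFP, so it did not separate the groups.

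The counts of the signalling lists stand against 2.63% of all genes higher and 0.539% lower. Among signalling pathways, the list of BMP and TGF-beta ligands, receptors, antagonists and targets rose in 3 of 35, with a median of 0.16. Bmp6, a BMP ligand, had 8.51, 8.37, 7.99 and 8.93 in SEZ_GFPprom, against 5.21 and 4.46 in SEZ_GFP (12.2-fold, adjusted p = 0.000438). With Sostdc1, given above, the list thus held a higher ligand and a higher antagonist. The receptor Tgfbr2, which binds TGF-beta, was 7.92-fold higher (adjusted p = 0.0125, and 0.0824 or 0.177 without SEZ_GFP replicate 1 or 2). The targets Id3 (0.65, interval -0.02 to 1.32) and Id4 (0.40, interval -0.06 to 0.85) did not pass, and neither did Nog, the antagonist noggin (0.22), which lay near the floor. Wnt pathway genes had 1 higher and 2 lower calls in 37 with a median of 0.00. Wnt4, a secreted ligand, had 10.76, 10.20, 9.58 and 10.50 in SEZ_GFPprom, against 7.20 and 6.13 in SEZ_GFP (12.1-fold, adjusted p = 0.00159, and 0.0502 without SEZ_GFP replicate 2). Notch genes had 1 lower call in 29, Mfng, a modifier of Notch receptors (-1.55, adjusted p = 0.0386), which missed without SEZ_GFP replicate 1 (0.188) or 2 (0.332) or SEZ_GFPprom replicate 1, 3 or 4 (0.0524 to 0.0821). Genes of the FGF, EGF and IGF pathways passed in 0 of 41, with 6 at an unadjusted p under 0.05. The lower Wnt genes were Tle2, a corepressor (-2.42, adjusted p = 0.0373), and Apcdd1, a membrane inhibitor (-1.29, adjusted p = 0.044). Both missed without SEZ_GFP replicate 1 (0.203 and 0.104) or replicate 2 (0.283 and 0.497). Tle2 missed without any 1 of the 4 SEZ_GFPprom arrays as well (0.0624 to 0.0842), and Apcdd1 without replicate 1, 3 or 4 of them (0.0768 to 0.0934).

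Matrix genes had 2 higher and 4 lower calls in 51, and 1 and 2 without SEZ_GFP replicate 2. Over all genes 2.63% were higher and 0.539% lower. Cspg4 and Matn4, given above, were among the lower matrix genes. Fbln2, a fibulin of basement membranes, had 5.64, 5.29, 5.70 and 4.64 in SEZ_GFPprom, against 7.28 and 7.23 in SEZ_GFP (3.82-fold lower, adjusted p = 0.00176). The proteoglycan Vcan differed by -1.89 (adjusted p = 0.0137, and 0.25 without SEZ_GFP replicate 2). The higher genes were Lamb1, a laminin chain, at 2.02 (adjusted p = 0.00194) but -0.00 without probe sets matching several transcripts, and Col4a2, a collagen of basement membranes (1.92, adjusted p = 0.0203), which missed without SEZ_GFP replicate 1 (0.168) or 2 (0.155) or SEZ_GFPprom replicate 2 (0.0526). Transport genes of ependyma and plexus rose in 4 of 32, Slc26a3, Car9, Slc2a1 and Clic6. Slc26a3 exchanges chloride for bicarbonate and had 9.15, 7.88, 8.44 and 8.94 in SEZ_GFPprom, against 3.46 and 3.32 in SEZ_GFP (adjusted p = 6.44e-05). Car9, a carbonic anhydrase at the cell surface, was 10.3-fold higher (adjusted p = 0.002), while the cotransporter Slc12a2 differed by -0.11 and the water channel Aqp4 by 0.88 (interval -0.13 to 1.89). The transport count was 2 without SEZ_GFP replicate 2.

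Each metabolic list held 0 to 2 calls, against 3.17% of all genes, and nothing particular to metabolism is read from these calls. Without overlap, SEZ_GFPprom lay above for 15.9% of all genes and below for 9.89%. The counts above and below were 19 and 0 of 43 respiratory chain genes and 11 and 3 of 34 ribosomal proteins. For enzymes against oxidants and xenobiotics they were 19 and 2 of 40, and for fatty acid oxidation 9 and 1 of 25. Cholesterol synthesis had 0 and 5 of 19 and glycolysis 4 and 1 of 18. What these leanings mean was not tested. Subunits of the respiratory chain passed in 0 of 43 (median 0.25), ribosomal proteins in 0 of 34 (0.13) and cholesterol synthesis in 0 of 19 (-0.38), with 3, 1 and 0 genes at an unadjusted p under 0.05. Fatty acid oxidation rose in 2 of 25, in 1 without SEZ_GFP replicate 1 and in 0 without replicate 2, and glycolysis in 1 of 18. In the last list Pdk1, the kinase that restrains pyruvate dehydrogenase, was 2.38-fold higher (adjusted p = 0.00766, and 0.156 without SEZ_GFP replicate 2). Enzymes against oxidants and xenobiotics rose in 2 of 40, of which the epoxide hydrolase Ephx1 was 4.06-fold higher (adjusted p = 0.00201, and 0.0514 without SEZ_GFP replicate 2). The other was Gsta4, a glutathione transferase (3.10-fold, adjusted p = 0.0302, and 0.478 without SEZ_GFP replicate 2, with 0.0687 and 0.0786 without SEZ_GFPprom replicates 1 and 4). Ifitm3, an interferon-induced membrane protein, was the 1 call in 25 interferon genes (8.58-fold, adjusted p = 0.0117, and 0.0877 or 0.155 without SEZ_GFP replicate 1 or 2). Of 27 early response and stress genes 1 rose, the heat shock gene Hsph1 (2.22-fold, adjusted p = 0.0248), which missed without SEZ_GFP replicate 1 (0.283) or SEZ_GFPprom replicate 2 or 4 (0.0509 and 0.0649). Fos, an early response gene, had 12.23 to 12.92 in SEZ_GFPprom and 12.35 to 12.44 in SEZ_GFP, so its groups overlapped. Hspa1a, another heat shock gene, varied within SEZ_GFPprom, from 7.88 to 10.63, against 6.88 to 7.71 in SEZ_GFP (adjusted p = 0.288).

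Of the genes that passed, 349 of the higher and 82 of the lower are in none of the lists. The following were chosen after their values were seen. Hdc, which makes histamine, had 11.18, 10.78, 10.04 and 10.99 in SEZ_GFPprom, against 6.79 and 6.51 in SEZ_GFP (4.10 ± 0.46, adjusted p = 0.000367). Krt18, a keratin of simple epithelia, had 8.04, 6.91, 6.87 and 7.04 in SEZ_GFPprom, against 4.58 and 4.25 in SEZ_GFP (2.80 ± 0.39, adjusted p = 0.00153). Its partner Krt8 differed by 2.71 (adjusted p = 0.0144, and 0.159 or 0.0952 without SEZ_GFP replicate 1 or 2). Each of these genes had all double-positive arrays above both GFP arrays. Myo7a, a myosin of sensory stereocilia, differed by 3.96 (adjusted p = 0.000747), Maats1, a ciliary protein, by 3.82 (adjusted p = 5.04e-05) and Ecrg4, which encodes augurin, a secreted peptide, by 5.02 (adjusted p = 0.00146). On the lower side Kif21b, a kinesin of neurons, had 6.61, 6.69, 6.6 and 6.49 in SEZ_GFPprom, against 8.04 and 7.93 in SEZ_GFP (-1.39 ± 0.21, adjusted p = 0.00245). Lrp8, a reelin receptor, differed by -1.77 (adjusted p = 0.00471, and 0.121 without SEZ_GFP replicate 2) and Vax1, a homeobox factor of the ventral forebrain, by -1.61 (adjusted p = 0.00852, and 0.129 without SEZ_GFP replicate 1).

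The other 3 sorts of the series place these genes. They are the prominin sort (SEZ_Prom, n = 2) and the CD24 sort (SEZ_CD24, n = 2) of the SEZ and the GFP sort of the diencephalon (DIEC_GFP, n = 4). The choice of the higher genes leaves out SEZ_GFP as their highest group and favours SEZ_GFPprom. Among the 479 higher genes the highest of the 5 group means was in SEZ_GFPprom for 394, in SEZ_Prom for 42, in DIEC_GFP for 40 and in SEZ_CD24 for 3. Their median level was 8.06 in SEZ_GFPprom and 5.29 in SEZ_GFP, values the choice of genes fixes, and 5.83 in SEZ_Prom, 5.06 in SEZ_CD24 and 6.76 in DIEC_GFP. The choice of the 98 lower genes in turn leaves out SEZ_GFPprom and favours SEZ_GFP. Of them 46 had their highest mean in SEZ_GFP, 42 in SEZ_CD24 and 10 in DIEC_GFP. The median level of the ependymal markers was 10.15 in SEZ_GFPprom, 6.30 in SEZ_GFP, 6.22 in SEZ_Prom, 5.47 in SEZ_CD24 and 8.40 in DIEC_GFP. The CD24 sort, which the labels call ependymal, thus had the lowest median of the 5. Neuroblast markers ran the other way, with a median level of 8.55 in SEZ_GFPprom and 9.86 in SEZ_GFP, and 8.24 in SEZ_Prom, 10.28 in SEZ_CD24 and 6.71 in DIEC_GFP.

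**Figure D5:**
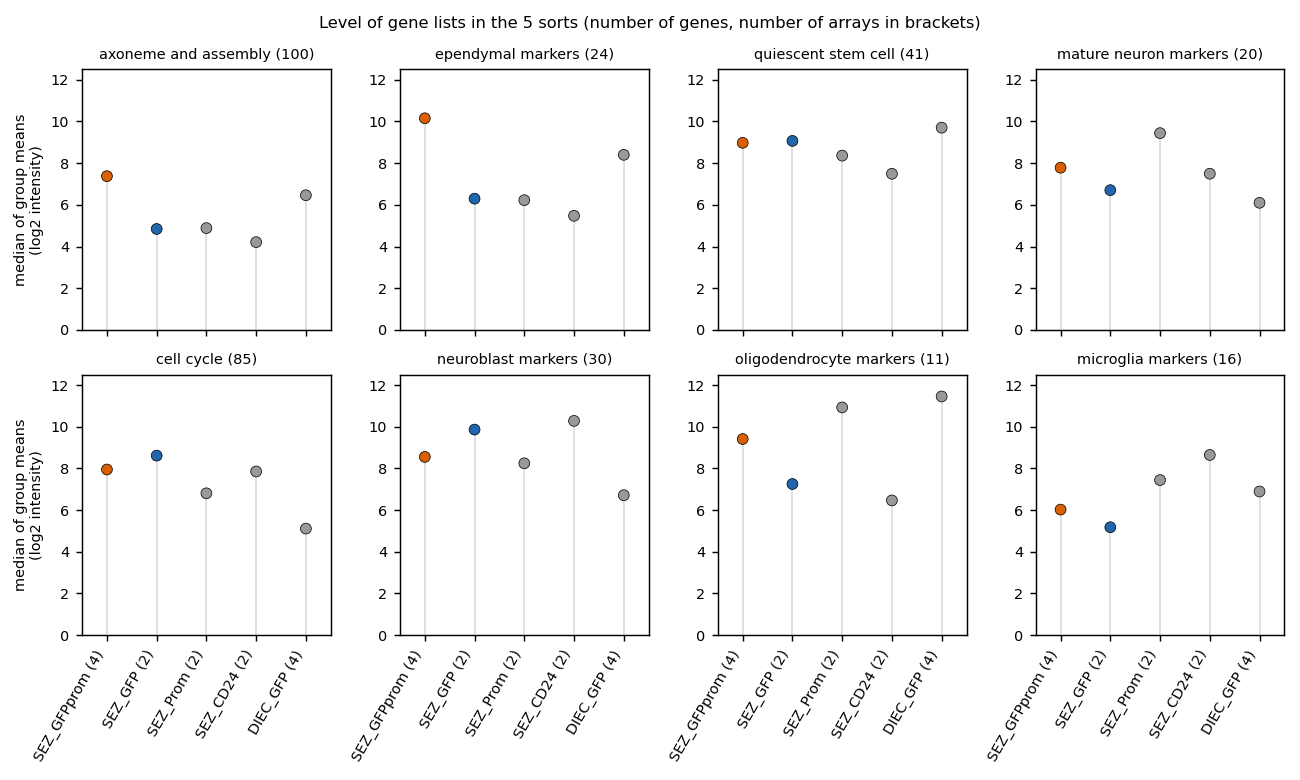
Median over the genes of a list of the group mean log2 intensity in SEZ_GFPprom (orange), SEZ_GFP (blue) and the other 3 sorts (grey), 1 panel per list, with the number of genes and arrays in brackets and each axis starting at 0. Axoneme and ependymal lists are highest in SEZ_GFPprom, the cell cycle list is highest in SEZ_GFP and neuroblast markers in SEZ_CD24, and levels are to be read across groups within a panel only.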

How the data were processed

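The measurements are Affymetrix Mouse Genome 430 2.0 arrays, 14 in 5 sorts. The deposited table holds linear intensities that were background-corrected, normalized and summarised per probe set with RMA, per the submitters' processing notes, which give no version. What a linear unit is worth in RNA is unknown, so values are compared between arrays, no probe set's level is set against another's, and a sum over a list is weighted by its brightest probe sets. RMA gives no detection call, and precision is limited by how few arrays there are.

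Of 45101 probe sets, 64 are controls, and 34945 of the rest carry 1 gene symbol in the platform annotation, 932 several and 9160 none. Only the first kind was named, with symbols updated through gene identifiers (34741) or an accession (1), while 203 kept the platform's symbol. Each gene was read by its brightest probe set over all arrays, which left 18193 genes, 9010 of them with several probe sets. Values were taken to log2 with no pseudocount. All 14 arrays were fitted with a mean for each of 5 groups in limma 3.58.1 (R 4.3.3), and the contrast was tested with moderated statistics, two-sided, with Benjamini-Hochberg adjustment over all genes. Intervals are 95%, from the same fit. The fit was checked on data made with known answers. Same-numbered arrays of the 2 groups showed little correlation of their deviations from the group means (0.04 and -0.02), and the arrays were not paired. The deviations of the 2 SEZ_GFP arrays mirror each other, so this check cannot exclude a shared effect.

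Gene lists (53, with 1146 distinct genes measured) and the tests were chosen with earlier results of these data known. Genes were named by rule: the 12 highest and 12 lowest calls, the genes Prom1, Gfap and Cd24a, marked members of each list and up to 6 further members past the threshold. The examples printed are a part of those, chosen after their values were seen. Promoter sequences are RefSeq's, build GRCm38.p6. Alternatives covered normalization, dim genes, probe sets, the model and each array left out. Some genes and sequences are not analysed here.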

Additional observations from a re-analysis of the deposited data

Results flagged for a closer look

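In a group of 4 arrays, a value was singled out when its gap to the nearest of the others exceeded Dixon's critical share of the whole range of the group, which chance does for about 1 group in 20. Of the 169 genes named in the text 11 had such a SEZ_GFPprom array, 2 on replicate 1, 4 on replicate 2, 4 on replicate 3 and 1 on replicate 4. SEZ_GFP has too few arrays for the same rule.

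Replicate 3 was low for Zmynd10, an assembly factor of dynein arms, at 7.11 against 8.28 to 8.41 on the other arrays, and for the doublet protein Cfap45 at 7.51 against 8.90 to 9.09. It was also low for the gap junction gene Gja1 at 11.71 against 12.20 to 12.26 and for the myelin gene Mbp at 12.02 against 12.34 to 12.38. Replicate 2 was low for Xist at 6.98 against 10.89 to 11.39, for the receptor gene Tgfbr2 at 6.83 against 8.41 to 8.57, for the homeobox gene Pbx3 at 8.16 against 9.14 to 9.26 and for the BMP target Id4 at 11.38 against 11.67 to 11.72. Replicate 4 was low for the helicase gene Mcm6 at 8.26 against 9.02 to 9.13. Replicate 1 was high for the keratin gene Krt18 at 8.04 against 6.87 to 7.04 and low for the homeobox gene Vax1 at 6.15 against 6.61 to 6.70. Zmynd10, Cfap45, Mbp and Krt18 passed the test without any 1 of the SEZ_GFPprom arrays. So did Pbx3, Tgfbr2 and Vax1 (limma adjusted p at most 0.0231, 0.0372 and 0.021), whose dependence on the SEZ_GFP arrays is given above.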

How the results depend on the processing

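All called genes that an alternative tested kept the sign of their difference under the 19 alternatives, except 1 with the mean of the probe sets of a gene and 5 without probe sets matching several transcripts, among them Edaradd (0.16), Pkp2 (-0.0468) and Lamb1 (-0.0021). Without such probe sets 527 of the 570 calls that could be tested were kept. Of the genes named in the text 3 changed sign there and 7 lost their call, and not all of the 7 are marked above. Of the 114 called genes named in the text, 64 passed in every alternative that tested them, 49 of these in all 19, since filters on dim genes and on probe sets left some genes out. The counts moved more. With one array left out the total ran from 198 to 646, the higher genes from 184 to 533, the lower genes from 14 to 113, the axoneme genes that rose from 40 to 68, the ependymal markers that rose from 14 to 17 and the neuroblast markers that fell from 1 to 5. The lowest of these came without SEZ_GFP replicate 2, where the lone array left is taken to vary like the other groups. Lower genes numbered 212 with equal medians, 158 with the mean of probe sets and 46 with the replicate number as a block. That block left 428 calls in all and kept 377 of the 577. Whether equal replicate numbers mark anything the arrays share is not given, so what the lost calls mean was not tested. Array weights gave 1364 calls, 967 higher and 397 lower, and 13 neuroblast markers. Neuroblast markers that fell were 7 with equal medians, 7 without the dimmest 50% of genes, 7 with only the 2 groups and 10 with the 3' to 5' ratio as a covariate. Without the dimmest 50% of genes 40 axoneme genes rose, since 52 were left to test. The cause of the other moves was not tested.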

Other observations

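Among 297 called genes that have several probe sets, 71 had more than 1 past the threshold in the same direction, 29 had all of them past it, and 0 had 1 past it in the opposite direction. On the higher side, 34 genes had a SEZ_GFP mean at or under an intensity of 10, so their folds rest on the floor that was set. On the lower side 8 genes had such a mean in SEZ_GFPprom.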
